A study of Arabidopsis thaliana with 9 samples.

Results

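The 10 genes described here encode the stress-responsive ZAT and AZF zinc finger repressors of Arabidopsis thaliana: STZ (also called ZAT10), ZAT5, ZAT6, ZAT7, ZAT8, ZAT11, ZAT12, AZF1, AZF2 and AZF3. Each was taken by its gene identifier from the deposited table of 33871 loci, as the longest locus on the strand of the gene where several listed it, and all 10 were found. The set was chosen by its FPKM over all 9 libraries as well as by family, so these levels and the differences between groups are a description and carry no test. The names ZAT5 and ZAT8 come with that choice, while STZ, ZAT6, ZAT7, ZAT11, ZAT12 and the AZF genes are listed in the RefSeq annotation.

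RNA was sequenced from inflorescences of 5-week-old soil-grown plants kept at 22 °C in long days, all of the genotype 35S:AP1-GR ap1,cal. In ap1 cal double mutants the apices form masses of proliferating meristems, and AP1-GR is the floral regulator APETALA1 fused to a glucocorticoid receptor domain and expressed from the constitutive 35S promoter. The 3 groups of 3 libraries were inflorescences without treatment, with cycloheximide for 2 h as the mock treatment, and with dexamethasone plus cycloheximide for 2 h. Cycloheximide blocks translation elongation, and dexamethasone moves the fusion protein into the nucleus. Every plant carried AP1-GR, so an action of dexamethasone itself and one of AP1 cannot be told apart. No group was treated without cycloheximide, so an action of cycloheximide and one of the treatment procedure cannot be told apart either. The labels name biological replicates without saying what separates them, and p-values measure the spread between these libraries.

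Plant C2H2 zinc finger repressors of this family bind DNA through a pair of fingers that each hold the conserved residues QALGGH, and many carry an EAR motif, a short leucine-rich stretch that recruits TOPLESS-type co-repressors and histone deacetylases. They are textbook early response genes: their transcripts appear fast after wounding, cold, salt, strong light, oxidants and elicitors, downstream of calcium and MAP kinase signals, and the proteins then dampen other stress genes. Transcripts of many early response genes accumulate when translation is blocked, which is called superinduction.

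The zinc finger signature is shown first because it defines the family and because near-identical copies bear on how reads can be assigned. These are the 18 coding bases of QALGGH, 5′ to 3′ on the strand of the gene, read from the TAIR10 genome, with capitals at bases that differ from the first copy in STZ.
STZ copy 1: caagctctcggtggtcac
STZ copy 2: caagctctcggCggAcac
ZAT5 copy 2: caagctctcggtggtcac
ZAT12 copy 1: caagcCTtAggAggtcac
ZAT7 copy 1: caagctTtGggAggtcaT
ZAT8 copy 1: caagctTtGggAggtcaT
AZF2 copy 1: caGgctTtAggCggtcac
AZF3 copy 1: caagctctcggCggtcaT
The second ZAT5 copy had the same 18 bases as the first STZ copy, and ZAT7 and ZAT8 shared all 18 bases of their first copy, which differed from STZ at 4. Among the 20 copies in the 10 genes the number of bases differing from STZ ran from 0 to 4. All 10 predicted proteins held QALGGH 2 times, with 43 (ZAT12 and AZF3) to 75 (ZAT5) residues from one start to the next.

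The predicted proteins had 162 (ZAT12) to 286 (ZAT5) residues and a single coding exon in every case, against 22.3% of all annotated protein-coding genes. The DLNL form of the EAR motif stood near the end of ZAT5, ZAT11, AZF1 and AZF2, 14 to 50 residues from the last one. It was in 4 of the 10 genes and in 1.08% of all genes. The LxLxL form occurred in 7 of the 10, and its share over all genes was not computed, so no enrichment is read from it. In ZAT7 and ZAT12 the last copy lay in the tail, as in ZAT5 and ZAT11, where it overlaps DLNL. The only copy in ZAT6, AZF1 and AZF2 lay before the first finger, at residues 54, 64 and 71. STZ and AZF3 held only the shorter letters DLN and ZAT8 none of these strings. Pairs of members shared 27.98% to 90.2% of the residues of the shorter protein, with a median of 36.0% over 45 pairs. ZAT7 and ZAT8 were the most alike (90.2%), followed by STZ with ZAT6 (73.6%), ZAT8 with ZAT12 and STZ with AZF3 (both 71.0%). ZAT5 and ZAT11 shared at most 44.9% with any member, the value of their own pair.

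**Figure D1:**
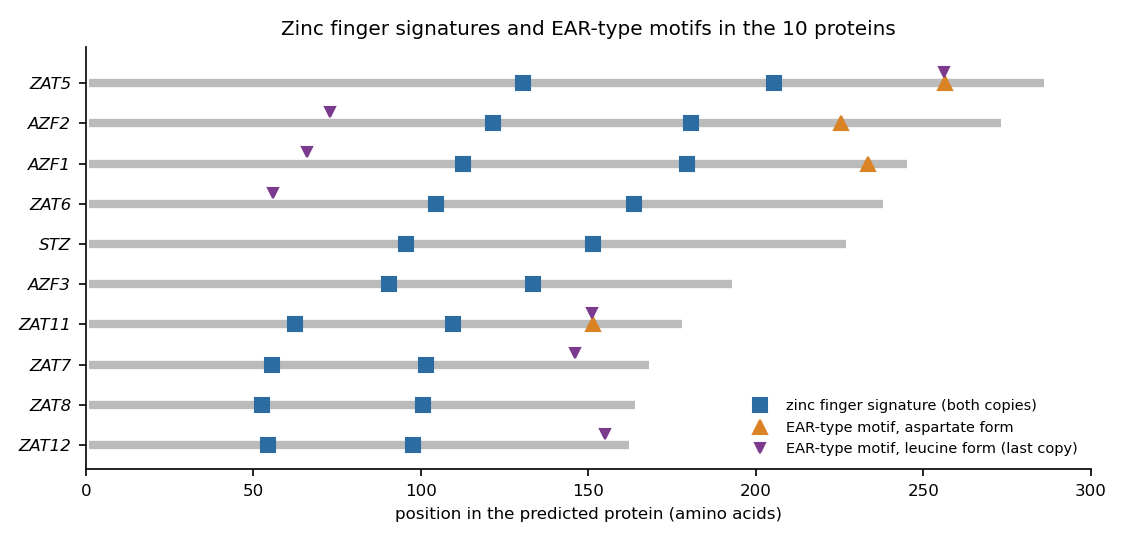
Predicted protein of each gene as a bar (x axis, position in amino acids from the start), with both zinc finger signatures and the EAR-type motifs: the aspartate form is DLNL, the leucine form LxLxL. The proteins run from 162 residues in ZAT12 to 286 in ZAT5, each with 2 signatures, and the aspartate form lies near the end in 4 of them.

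STZ (AT1G27730, chromosome 1, 9648021 to 9649323), the salt tolerance zinc finger, is a repressor of salt, drought and photo-oxidative responses and a substrate of MAP kinases. Its FPKM, a level per locus length and per library size, was 12.3, 11.7 and 11.6 in untreated replicates 1, 2 and 3. With cycloheximide it was 1457, 1959.6 and 2289, and with dexamethasone + cycloheximide 2374, 2627 and 2983. The 3 groups did not overlap: untreated libraries lay far below the treated ones, and all 3 libraries with dexamethasone lay above those with cycloheximide alone. The difference between cycloheximide and untreated libraries was 7.18 ± 0.17 (log2 fold change ± SE, n = 3 per group), a ratio of means of 160.1. Log2 fold changes here are on the scale of log2(FPKM + 1), which understates differences from low levels, and come from a limma fit of all 9 libraries. Between the treated groups it was 0.50 ± 0.17, a ratio of means of 1.40, and 0.32 without cycloheximide replicate 1. In inflorescences as a whole, more cells with the transcript and more transcript per cell cannot be told apart.

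ZAT6 (AT5G04340, chromosome 5, 1216058 to 1217362), the member closest to STZ in protein sequence, is known for roles in phosphate supply and in stress tolerance. It had 6.25, 6.77 and 4.11 FPKM without treatment, 76.5, 84.3 and 113 after cycloheximide and 153, 136 and 203 when dexamethasone was added. Here too the groups stood apart in order, with the lowest dexamethasone library above the highest with cycloheximide alone. Its log2 fold change was 3.79 ± 0.22 with cycloheximide and 0.84 ± 0.22 between the treated groups.

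AZF2 (AT3G19580, chromosome 3, 6802903 to 6804296) represses hormone-responsive genes, among them auxin-inducible ones, under salt and drought. It had 5.83, 5.81 and 5.69 FPKM in untreated libraries, the tightest group of all members (coefficient of variation 1.27%). Cycloheximide libraries had 128, 203 and 270.3 FPKM and those with both compounds 334, 410.3 and 524. The 3 groups did not overlap, and cycloheximide replicate 1 was the lowest treated library. The difference with cycloheximide was 4.83 ± 0.26, and that between the treated groups was 1.11 ± 0.26.

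AZF1 (AT5G67450, chromosome 5, 26918765 to 26920179) acts alongside AZF2 under salt and drought. It was near 0 untreated, with 0.201, 0.250 and 0.223 FPKM, and reached 21.6, 20.8 and 49.4 with cycloheximide. With both compounds it had 39.0, 27.0 and 46.6 FPKM, so the treated groups overlapped: cycloheximide replicate 3 exceeded every dexamethasone library. The differences were 4.57 ± 0.32 and, between treated groups, 0.37 ± 0.32. The latter was 0.18 and 0.16 without cycloheximide replicate 1 or 2, 0.76 without replicate 3 of that group, and 0.58 and 0.20 without replicate 2 or 3 of the other.

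AZF3 (AT5G43170, chromosome 5, 17330945 to 17331646) had 0.250, 0.198 and 0.386 FPKM without treatment, 10.1, 8.74 and 11.4 after cycloheximide and 11.5, 12.6 and 10.2 when dexamethasone was added. Untreated libraries lay below all treated ones, and the treated groups overlapped. The log2 fold changes were 3.11 ± 0.12 and 0.17 ± 0.12, the latter 0.078 without cycloheximide replicate 2, 0.25 without replicate 3 and 0.10 without dexamethasone + cycloheximide replicate 2. Its deposited locus, on the minus strand, also lists QWRF9, a gene of the opposite strand that shares 408 bases with it. The locus on the plus strand at the same place had 1.93 ± 0.362 FPKM (SD, n = 3) untreated and 2.38 ± 0.382 with cycloheximide, a difference of 0.21 ± 0.16 that did not pass the test (limma, adjusted p = 0.302). The labels name a kit that keeps no strand, the study's design note a strand-specific protocol, so how reads of the pair were divided is not settled.

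ZAT12 (AT5G59820, chromosome 5, 24102814 to 24103794), also known as RHL41, is a light and oxidative stress regulator needed for full expression of the peroxidase gene APX1. Its FPKM was 8.64, 8.34 and 5.89 without treatment, 390.3, 579 and 651 after cycloheximide and 895, 811 and 1089 when dexamethasone was added. The groups did not overlap and stood in the same order as those of STZ, with cycloheximide replicate 1 the lowest treated library. The log2 fold change was 5.95 ± 0.22, a ratio of means of 70.8, and 0.81 ± 0.22 between the treated groups.

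ZAT7 (AT3G46090, chromosome 3, 16925881 to 16926883), an EAR repressor linked to salinity tolerance, had the widest difference of all. It went from 0.359, 0.249 and 0.165 FPKM in untreated libraries to 279, 352 and 555 with cycloheximide. With both compounds it had 801, 539 and 813 FPKM, and the treated groups overlapped by a single library, dexamethasone + cycloheximide replicate 2, just below cycloheximide replicate 3. The log2 fold change was 8.24 ± 0.25 with cycloheximide, or 10.1 with a pseudocount of 0.1 instead of 1, and 0.89 ± 0.25 between the treated groups. No ratio to untreated libraries is given for members under 1 FPKM there, where it turns on the smallest values.

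ZAT8 (AT3G46080, chromosome 3, 16922514 to 16923299) lies 2581 bases from ZAT7 on the same minus strand. It had 0.587, 0.475 and 0.118 FPKM without treatment, 129, 168 and 218 after cycloheximide and 358, 319 and 396 when dexamethasone was added. No library of one group reached into another. Its log2 fold change was 6.94 ± 0.20 with cycloheximide and 1.08 ± 0.20 between the treated groups, a ratio of means of 2.08.

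ZAT7 and ZAT8 have coding sequences with 93.8% identical bases and a longest identical run of 44 bases, so reads that match both could have been divided between them, and the separate levels of the pair are uncertain. A deposited locus with no gene name over the annotated 3′ part of ZAT7 (chromosome 3, 16925878 to 16926140, minus strand) was picked after its values were seen, and its values are a description like those of ZAT7. It was listed at 0 in the 3 untreated libraries, at 7.002, 10.3 and 14.5 FPKM after cycloheximide and at 14.8, 21.3 and 21.2 when dexamethasone was added. The 3 groups did not overlap, and the lowest library with dexamethasone lay just above the highest with cycloheximide alone.

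ZAT11 (AT2G37430, chromosome 2, 15706285 to 15707224), known from nickel tolerance and root growth, varied most among replicates. Untreated libraries had 0.174, 0.402 and 0.0913 FPKM. Cycloheximide libraries had 67.1, 129.8 and 272 FPKM, a coefficient of variation of 67.2%, and those with both compounds 197, 172 and 448. All treated libraries lay above all untreated ones, while the 2 treated groups overlapped broadly. The differences were 6.79 ± 0.51 and, between the treated groups, 0.89 ± 0.51. The latter was 0.40 without cycloheximide replicate 1, 0.46 without dexamethasone + cycloheximide replicate 3 and 1.40 without cycloheximide replicate 3.

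ZAT5 (AT2G28200, chromosome 2, 12023940 to 12025370), the gene of the longest protein, differed least. It had 1.90, 2.33 and 2.15 FPKM without treatment, 2.95, 2.32 and 3.35 after cycloheximide and 3.03, 3.08 and 2.80 when dexamethasone was added. Cycloheximide replicate 2 lay inside the untreated range, so these groups overlapped. The log2 fold changes were 0.30 ± 0.12 with cycloheximide and 0.045 ± 0.12 between the treated groups, the latter from -0.062 to 0.13 with single libraries left out (lowest without cycloheximide replicate 2, highest without replicate 3). The difference with cycloheximide was called in 1 of 17 fits, without cycloheximide replicate 2 (0.41), and turned to -0.046 with quantile normalization.

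**Figure D2:**
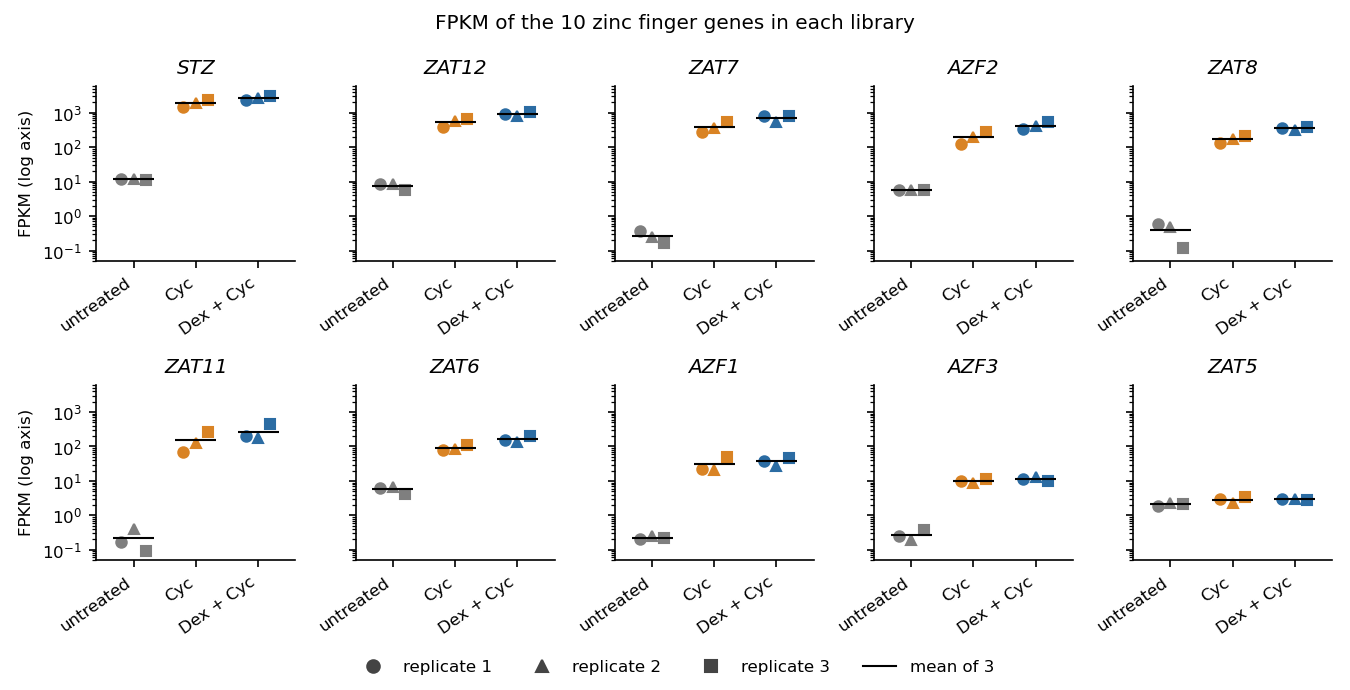
FPKM of each gene on a log axis (y) in each of the 9 libraries, by group (x), where Cyc is cycloheximide and Dex + Cyc dexamethasone plus cycloheximide. Symbols mark the replicate and bars the mean of 3. In 9 genes all treated libraries lie above all untreated ones, and ZAT5 alone stays between 1.90 and 3.35 FPKM.

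The order of the members by mean FPKM, a scale per length, was the same in both treated groups: STZ, ZAT12, ZAT7, AZF2, ZAT8, ZAT11, ZAT6, AZF1, AZF3 and ZAT5. Ranges over 3 libraries overlapped between the neighbours ZAT12 and ZAT7, AZF2 and ZAT8, ZAT8 and ZAT11, and ZAT11 and ZAT6. Within libraries ZAT12 was nevertheless above ZAT7 in every treated library, and ZAT11 above ZAT6 in all 3 libraries with both compounds, while AZF2 and ZAT8, and ZAT8 and ZAT11, changed places between libraries. STZ stood above every other member and took 34.4% of the summed member FPKM untreated, 54.3% with cycloheximide and 47.7% with both compounds. In untreated libraries STZ, ZAT12, AZF2 and ZAT6 lay above ZAT5, AZF2 and ZAT6 with overlapping ranges, and ZAT8, AZF3, ZAT7, AZF1 and ZAT11 lay below it, with overlapping ranges and ZAT8 the highest at 0.393 FPKM on average. Among 19569 loci STZ moved from rank 12341 untreated to 224 with cycloheximide and 171 with both compounds. The summed FPKM of the 10 genes was 30.4 to 36.6 in untreated libraries, 2562 to 4432 with cycloheximide and 5057 to 6517 with both compounds.

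In the comparison of cycloheximide with untreated inflorescences, all but ZAT5 were higher in every treated library, by log2 fold changes from 3.11 in AZF3 to 8.24 in ZAT7. This is the comparison of the mock treatment with no treatment, so it holds the treatment procedure as well as cycloheximide. The fit covered the 19569 loci with a mean of at least 1 FPKM over the 9 libraries, and a call was an adjusted p under 0.05. All 10 members passed that filter, although 5 of them were under 1 FPKM untreated and passed through the treated libraries. Called higher were 9 of the 10, where 26.5% of all tested loci were called higher, 28.2% lower and 54.7% in either direction. With quantile normalization 3819 of 11818 calls were higher, against 5193 of 10712 here, and the median of all tested loci was -0.22 with it and -0.12 with upper quartile scaling. Libraries separated with the treated group above in 9 of 10, against 30.5% of all tested loci. Higher by at least 3 on the log2 scale and called were 9 of 10, against 3.57% of tested loci. The median log2 fold change was 5.39 over the members and -0.050 over all tested loci. The choice of members used these values, so nothing is read from these counts.

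In the comparison of dexamethasone + cycloheximide with cycloheximide alone, which asks what follows activation of AP1-GR while translation is blocked, all 10 members had a higher mean with dexamethasone, by log2 fold changes of 0.045 in ZAT5 to 1.11 in AZF2. STZ, ZAT6, ZAT8, ZAT12 and AZF2 were higher in all 3 libraries, 5 of 10 genes, where 14.4% of all tested loci separated this way. For those 5, same-numbered libraries point up in 3 of 3 pairs under any pairing. They also did so in 3 of 3 for ZAT7 and ZAT11, and in 2 of 3 for ZAT5, AZF1 and AZF3. The pairing was read from these data. The share over all loci was computed neither for such pairs nor for a higher mean, so nothing is read from these counts. ZAT8 was the 1 member called, where 1.91% of tested loci were called higher, 1.78% lower and 3.69% in either direction. It passed the expression filter only through its treated libraries and was chosen with these values in view, so the call is no support for the difference. With upper quartile scaling 287 of 692 calls were higher, against 374 of 723 here. The members' median was 0.82 and that of all tested loci 0.0066.

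ZAT8 was not called with a pseudocount of 0.1 or in a fit of only the 6 libraries compared. Its difference was 1.09 ± 0.40 with that pseudocount, against 1.08 ± 0.20 with a pseudocount of 1. The fit of all 9 libraries also pools the spread of its untreated libraries, all under 1 FPKM. A replicate block in the fit, with a pairing read from these data and not given by the labels, gave 2 calls, ZAT8 and AZF2. Without cycloheximide replicate 3 the calls were AZF2, ZAT8, ZAT7 and ZAT6, 4 in all, without untreated replicate 3 ZAT8 alone, and without any other single library 0. Point estimates of AZF2 and ZAT8 were close, and which member led changed with the library left out.

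**Figure D3:**
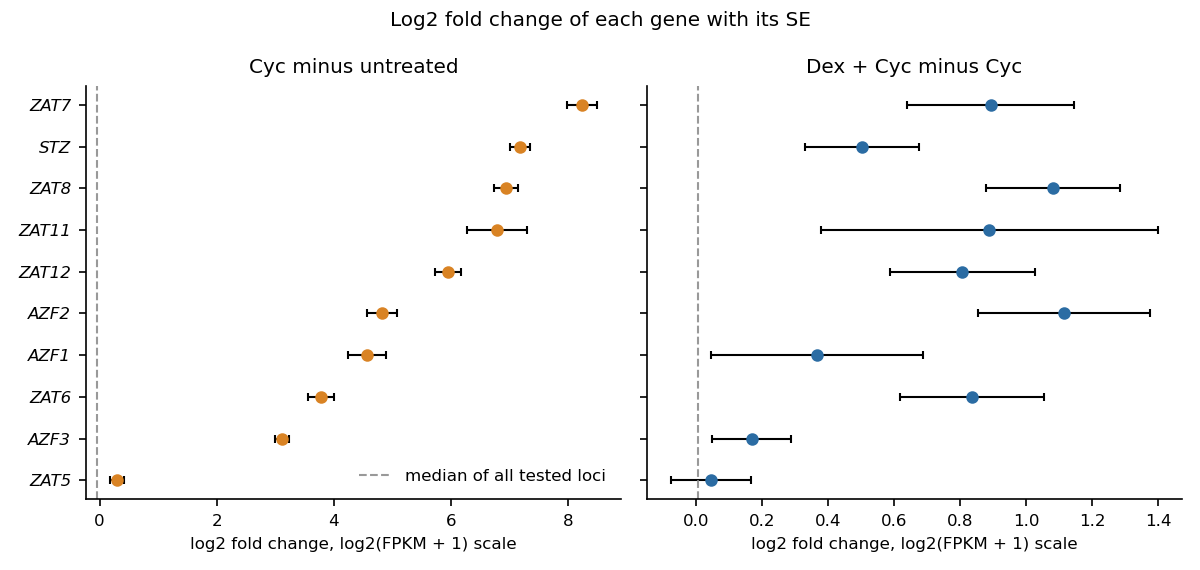
Log2 fold change of each gene on the log2(FPKM + 1) scale with its SE (x axes, which differ between the panels), for cycloheximide minus untreated and for both compounds minus cycloheximide. The dashed line is the median of all 19569 tested loci; the values run from 0.30 to 8.24 in the first panel and from 0.045 to 1.11 in the second.

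Between dexamethasone + cycloheximide and untreated libraries, a comparison that shares its libraries with those before it, log2 fold changes ran from 0.35 in ZAT5 to 9.14 in ZAT7. All 10 were called higher and separated by group, where 30.8% of tested loci were called higher, 33.1% lower and 63.9% in either direction, and 33.3% separated. The choice of members used these values, and 5 members passed the filter through the treated libraries, so nothing is read from the member counts. With quantile normalization 4529 of 13403 calls were higher, against 6035 of 12505 here, and the median of all tested loci went from -0.055 to -0.25, or to -0.16 with upper quartile scaling. STZ stood at 7.69 ± 0.17, ZAT12 at 6.76 ± 0.22 and AZF2 at 5.94 ± 0.26. ZAT5 was called in 9 of 17 fits, and its difference was -0.028 with quantile normalization.

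The spread inside the treated groups had a common order. Cycloheximide replicate 3 was the highest of its group for all 10 members, and replicate 1 the lowest for 7. Among the 699 loci called higher with cycloheximide by at least 3 on the log2 scale, replicate 3 was the highest for 83.1% and replicate 1 the lowest for 93.3%, while over all tested loci the shares were 31.6% and 36.6%. With both compounds replicate 3 was the highest for 8 of the 10 members, for 73.1% of those 699 loci and for 30.5% of all tested loci. The difference between the treated groups is thus measured against cycloheximide libraries that differ among themselves in the same transcripts, and the part this plays was not tested.

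Relative depth, read from the value of 1 fragment at loci near the minimum length, was 0.364 to 1 over the libraries, and the absolute depth is unknown. Within groups, pairs of libraries had Pearson correlations of 0.953 to 0.980 across loci, which are not independent replicates. All 7 markers of inflorescence and shoot meristems were detected in every group, with summed levels of 427 to 445 FPKM untreated, 307 to 359 with cycloheximide and 275 to 315 with both compounds. Their sum rests mostly on STM, BP and ANT, and the markers did not move together. With cycloheximide 3 were called higher (WUS, CLV1 and LFY), 3 lower (STM, BP and ANT) and 1, CLV3, was not called. Of the 4 anther and tapetum markers 1 was at 0 in all untreated libraries and 2 in all libraries with both compounds, and their sum was 2.56 to 7.24 FPKM untreated, 0.451 to 6.55 with cycloheximide and 0.255 to 0.394 with both compounds. The ovule marker STK was at most 0.152 FPKM. Photosynthetic markers summed to 3928 to 4215 FPKM untreated, 2282 to 2362 with cycloheximide and 1985 to 2619 with both compounds. The 2 phloem markers summed to 39.4 to 41.3 FPKM untreated, 45.1 to 52.5 with cycloheximide and 52.8 to 65.1 with both compounds. The guard cell marker FAMA had 4.81 to 7.14, 7.44 to 15.8 and 7.001 to 18.6 FPKM in the same order, and the 3 secondary cell wall markers summed to 3.72 to 7.46 over all libraries. The part of these tissues in the results was not tested.

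Promoters are shown for members that were higher together with cycloheximide, for AZF3, whose window held none of the motifs, and for ZAT5, whose difference was the smallest. Each is the 250 bases before the annotated RefSeq gene start, 5′ to 3′ on the strand of the gene. Capitals mark matches on either strand to TTGAC, the core bound by WRKY factors, CCGAC, the drought and cold element core, and GCCGCC, the box bound by ethylene response factors.
STZ promoter (TAIR10, chr1:9649324-9649573, minus strand): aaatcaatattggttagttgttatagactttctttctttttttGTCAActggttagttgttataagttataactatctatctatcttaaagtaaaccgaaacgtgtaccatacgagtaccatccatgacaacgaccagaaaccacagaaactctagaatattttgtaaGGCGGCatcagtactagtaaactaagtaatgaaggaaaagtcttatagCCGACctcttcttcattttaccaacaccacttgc
ZAT6 promoter (TAIR10, chr5:1217363-1217612, minus strand): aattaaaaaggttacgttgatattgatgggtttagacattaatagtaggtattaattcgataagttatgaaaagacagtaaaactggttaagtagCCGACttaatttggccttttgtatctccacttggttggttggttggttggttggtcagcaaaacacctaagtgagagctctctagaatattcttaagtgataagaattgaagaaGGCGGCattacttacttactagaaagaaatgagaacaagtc
ZAT12 promoter (TAIR10, chr5:24102564-24102813, plus strand): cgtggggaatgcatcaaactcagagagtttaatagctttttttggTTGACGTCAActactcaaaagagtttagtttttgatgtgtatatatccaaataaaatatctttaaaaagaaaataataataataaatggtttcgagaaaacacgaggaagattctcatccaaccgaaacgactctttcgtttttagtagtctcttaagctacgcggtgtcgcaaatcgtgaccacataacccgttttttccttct
AZF2 promoter (TAIR10, chr3:6804297-6804546, minus strand): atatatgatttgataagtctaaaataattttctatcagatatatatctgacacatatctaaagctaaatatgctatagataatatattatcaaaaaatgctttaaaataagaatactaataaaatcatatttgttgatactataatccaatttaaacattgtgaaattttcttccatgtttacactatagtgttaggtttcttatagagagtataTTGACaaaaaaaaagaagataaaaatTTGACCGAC
ZAT7 promoter (TAIR10, chr3:16926884-16927133, minus strand): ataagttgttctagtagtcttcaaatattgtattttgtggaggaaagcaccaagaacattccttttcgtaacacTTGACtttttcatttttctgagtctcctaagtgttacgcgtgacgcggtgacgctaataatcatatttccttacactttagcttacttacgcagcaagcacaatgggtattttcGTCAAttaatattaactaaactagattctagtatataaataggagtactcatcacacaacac
ZAT8 promoter (TAIR10, chr3:16923300-16923549, minus strand): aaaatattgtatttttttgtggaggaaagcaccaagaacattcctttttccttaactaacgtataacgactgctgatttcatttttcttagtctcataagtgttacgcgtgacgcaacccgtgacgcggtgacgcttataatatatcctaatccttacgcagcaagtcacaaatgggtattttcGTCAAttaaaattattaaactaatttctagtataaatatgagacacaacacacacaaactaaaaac
AZF3 promoter (TAIR10, chr5:17331647-17331896, minus strand): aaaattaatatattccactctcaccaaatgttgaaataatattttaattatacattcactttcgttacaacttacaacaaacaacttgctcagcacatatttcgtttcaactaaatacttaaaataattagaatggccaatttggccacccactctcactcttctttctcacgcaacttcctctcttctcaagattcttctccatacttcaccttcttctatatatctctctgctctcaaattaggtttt
ZAT5 promoter (TAIR10, chr2:12023690-12023939, plus strand): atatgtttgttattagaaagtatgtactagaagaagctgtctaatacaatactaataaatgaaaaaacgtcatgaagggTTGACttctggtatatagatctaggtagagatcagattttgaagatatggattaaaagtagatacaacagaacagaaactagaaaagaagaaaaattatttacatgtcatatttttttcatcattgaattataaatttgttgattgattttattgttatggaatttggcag
TTGAC or its reverse complement GTCAA was in 8 of the 10 windows, all but ZAT6 and AZF3, and in 44.9% of 27443 promoters of the same length. ZAT12 held 2 matches back to back, 196 to 205 bases before the start, and AZF2 a match that shares 1 base with CCGAC. At least 2 matches occurred in 4 of 10, against 14.1% of promoters. CCGAC was in STZ, ZAT6 and AZF2, 3 of 10 against 12.0%. GCCGCC was in STZ and ZAT6, 2 of 10 against 1.87%, with 77 to 82 and 36 to 41 bases to the start. The G-box CACGTG (6.49% of promoters) and CGCGTT (2.59%) matched in 0 of 10 on either strand. ZAT5 had 1 TTGAC match, as had STZ, ZAT8 and AZF1. A match is a string of letters and no shown binding site.

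Other genes with a pair of such fingers were mostly too low to test. Of 19 listed genes 5 reached the expression filter and 2 were called higher with cycloheximide, where 26.5% of all tested loci were. Both lack a symbol and are named here after their values were seen. AT3G53600, whose protein shares 64.6% of residues with ZAT11, had 0.252, 0.224 and 0.304 FPKM untreated, 4.99, 17.7 and 24.8 after cycloheximide and 32.9, 41.9 and 95.3 when dexamethasone was added. It rose by 3.50 ± 0.55 with cycloheximide (limma, adjusted p = 0.000988). It passed the expression filter only through its treated libraries, so this p-value is no support for the rise. Its further difference with dexamethasone, 1.87 ± 0.55, did not pass the test (limma, adjusted p = 0.0934), though the groups did not overlap. AT3G60580 rose from 1.56 ± 0.139 to 3.01 ± 0.916 FPKM (SD, n = 3; 0.63 ± 0.17, limma, adjusted p = 0.0136). Between the treated groups 0 of the 5 were called by limma, with 1 at an unadjusted p under 0.05, AT3G53600. AT3G46070, a tandem neighbour whose protein shares 69.5% of residues with ZAT8, was too low to test. It was listed at 0, 0.0292 and 0.0459 FPKM untreated, at 0.119, 1.03 and 0.876 with cycloheximide and at 1.42, 0.628 and 1.45 with dexamethasone added, so all treated libraries lay above the untreated ones.

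Genes of the co-repressors and histone deacetylases that EAR motifs recruit held no call in the members' direction with cycloheximide. Of 8 listed genes 7 were tested, 0 were called higher and 3 lower, and the list median was -0.21. Of all tested loci 26.5% were called higher and 28.2% lower. This list and those below were chosen with earlier results of these data known, so their counts and p-values are descriptions. The TOPLESS-related gene TPR1 fell from 45.3 ± 2.58 to 29.4 ± 1.61 FPKM (-0.61 ± 0.076, limma, adjusted p = 0.000298). The histone deacetylase gene HDA19 fell from 101.1 ± 3.11 to 74.9 ± 7.67 FPKM (-0.43 ± 0.090, limma, adjusted p = 0.00412), and SAP18, a subunit of a deacetylase complex, from 133 ± 8.71 to 94.0 ± 17.5 (-0.51 ± 0.14, limma, adjusted p = 0.0130). None of the 7 was called between the treated groups, where TPR3 had the smallest p (0.17 ± 0.061, limma, adjusted p = 0.142). TPL itself lacked a valid estimate in an untreated library and was not tested.

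MAP kinase genes of the stress cascades mostly rose with cycloheximide, 7 of 8 called higher and 0 lower, with a median of 1.91. Of all tested loci 26.5% were called higher and 28.2% lower. MPK3, which phosphorylates STZ, rose from 139 ± 75.9 to 6208 ± 1237 FPKM (5.57 ± 0.34, limma, adjusted p = 6.06e-06). MKK9 rose from 17.2 ± 0.651 to 408 ± 50.9 (4.49 ± 0.11, limma, adjusted p = 1.00e-07) and MPK11 from 1.39 ± 0.552 to 49.4 ± 14.7 (4.38 ± 0.22, limma, adjusted p = 1.98e-06). Between the treated groups limma called 0 of 8, with MKK9 at 0.27 ± 0.11 (limma, adjusted p = 0.197).

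Reactive oxygen genes were mixed, 3 of 10 called higher and 2 lower with a median of -0.11, where 26.5% and 28.2% of all tested loci were called. The oxidative signal kinase gene OXI1 rose from 0.146 ± 0.0562 to 124 ± 52.5 FPKM (6.68 ± 0.31, limma, adjusted p = 1.36e-06) and the NADPH oxidase gene RBOHD from 42.0 ± 10.7 to 396 ± 38.5 (3.24 ± 0.19, limma, adjusted p = 4.40e-06). OXI1 passed the expression filter only through its treated libraries, so its p-value is no support for the rise. The superoxide dismutase gene CSD2 fell from 286 ± 17.97 to 199.6 ± 13.2 FPKM (-0.51 ± 0.092, limma, adjusted p = 0.00186). APX1, the peroxidase gene tied to ZAT12, had 423 ± 22.1 FPKM untreated, 268 ± 36.5 with cycloheximide and 237 ± 13.5 with both compounds, and fell between the first and the last by a log2 fold change of -0.84 ± 0.12 (limma, adjusted p = 0.000441). OXI1 at 290.98 ± 72.5 FPKM with both compounds was 1.29 ± 0.31 above cycloheximide alone, not called (limma, adjusted p = 0.0590) but called with the replicate block (limma, adjusted p = 0.0458).

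Cold and drought genes gave 3 rises and 1 fall among 5 tested with cycloheximide, and a median of 0.77. CBF1, under 1 FPKM untreated, passed the expression filter only through its treated libraries. CBF2 and CBF3 did not pass: CBF2 was higher on average with cycloheximide and CBF3 lower in every treated library. The count and the median therefore depend on the filter. COR47, a dehydrin gene, rose from 32.5 ± 7.51 to 84.2 ± 35.5 FPKM (1.27 ± 0.31, limma, adjusted p = 0.00942) and the cold regulator CBF1 from 0.196 ± 0.126 to 2.34 ± 1.87 (1.35 ± 0.42, limma, adjusted p = 0.0248). COR15A, at a locus that also lists another gene, fell from 63.8 ± 13.3 to 19.4 ± 3.50 FPKM (-1.66 ± 0.21, limma, adjusted p = 0.000313). With dexamethasone the median of the list was -0.79, and RD29A was the 1 gene of all these lists that was called (-1.26 ± 0.27), though not with the replicate block (limma, adjusted p = 0.0556).

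Early stress transcription factor genes, WRKY, ERF, MYB, NAC and heat shock factors, had the list median closest to that of the members. All 12 were called higher with cycloheximide, where 26.5% of all tested loci were, with a median of 5.72. The list was chosen with earlier results of these data known, so its count and p-values are a description. WRKY40, a repressor of defence and abscisic acid genes, rose from 11.2 ± 0.473 to 1463 ± 321 FPKM (6.89 ± 0.18, limma, adjusted p = 1.40e-07). ERF5 rose from 11.1 ± 2.74 to 727 ± 74.9 (5.93 ± 0.16, limma, adjusted p = 1.48e-07) and WRKY46 from 25.5 ± 7.16 to 3383 ± 372 (7.03 ± 0.21, limma, adjusted p = 1.98e-07). Between the treated groups limma called 0 of 12, with a median of 0.33 and the smallest p for the NAC gene ATAF1 (0.62 ± 0.16, limma, adjusted p = 0.0738).

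**Figure D4:**
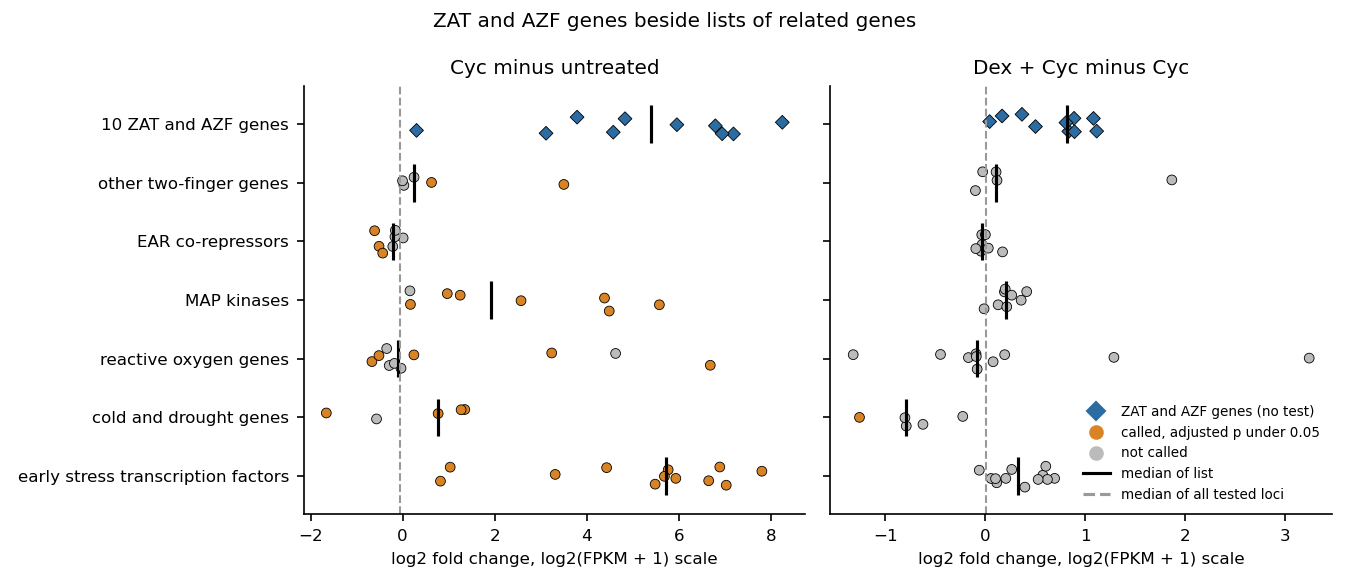
Log2 fold change on the log2(FPKM + 1) scale (x axes, which differ) of the members (diamonds, not tested) and of the tested genes of each list (circles, orange where called). Solid bars are list medians, 5.39 for the members and 5.72 for the early stress transcription factors in the first panel, and the dashed line is the median of all tested loci.

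The loci most like the 3 most abundant members were found as the smallest mean absolute difference of log2(FPKM + 1), centred on the untreated mean, over the 9 libraries and among 6549 loci of 1 gene with a symbol. For STZ they were ERF13, an ethylene response factor gene (0.123), GATL10 (0.140) and the ubiquitin ligase gene XBAT34 (0.150). ERF13 had means of 7.89 FPKM untreated, 1165 with cycloheximide and 1645 with both compounds. For ZAT12 they were AR781 (0.0852), ERF1 (0.142) and the glutamyl transpeptidase gene GGT1 (0.142), and AR781 had 10.8, 749.7 and 1360.4 FPKM in the 3 groups. For ZAT7 they were the calmodulin-like gene CML37 (0.217), BAP2 (0.329) and BHLH92 (0.441). CML37 had 1.09, 591 and 977 FPKM.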

How the data were processed

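Messenger RNA of 9 libraries, 3 per group by the labels alone, was analysed from the FPKM that the authors deposited per locus. TopHat, Cufflinks and Cuffdiff, and the build TAIR10, are named in the submitters' processing notes; versions and the scaling between libraries are not given in the sources used here. No counts were given, so depth is known only in relative terms, from the value of 1 fragment at loci of near minimum length, and no counting interval can be made.

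Of 33871 loci, 77 lacked the status OK in a library. The 19569 others with a mean of at least 1 FPKM were fitted on log2(FPKM + 1) by limma (3.58.1; R 4.3.3), using its trend option and adjusting p by Benjamini-Hochberg, and the pipeline was tested on simulated data. The members and lists were chosen with earlier results of these data known, so members are described without tests and the p-values of list genes are descriptive.

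Named were all 10 members, other 2-finger genes that were called, up to 3 called genes per list or else the 1 with the smallest p, and the 3 loci most like each of the 3 most abundant members. No protein table was used: proteins were translated from RefSeq coding sequences of the TAIR10 genome and aligned with Biopython 1.88. Of 22931 single-gene loci 99.97% overlapped their annotated gene, and the members' loci covered at least 63.0% of theirs. Other 2-finger genes came from a list of 19 identifiers, of which 16 held QALGGH at least 2 times on translation.

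Replicate numbers recur in each group. Same-numbered libraries deviated together between the treated groups (r of 0.353, 0.131 and 0.213), where different-numbered ones had r of -0.281 to 0.113. The numbers were therefore taken to pair the treated groups from the data, while the main fit holds no block. Against untreated libraries same-numbered ones did not deviate together (-0.115 to 0.108). The replicate block was nevertheless fitted over all 9 libraries, and no label gives the pairing. Calls and p-values with the block rest on it and are descriptions. Alternatives were another pseudocount, no filter, 2 scalings, only the 6 libraries compared, the replicate block, no loci below 300 bp and leaving out each library. Python 3.11.15 with numpy 2.4.6, pandas 2.3.3 and, for plots, matplotlib 3.10.9 did the rest.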

Additional observations from a re-analysis of the deposited data

How the results depend on the processing

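Between the treated groups 1 member was called. The count was 0 with a pseudocount of 0.1 and with only the 6 libraries compared, and 2 with quantile normalization, with the replicate block and without loci below 300 bp. Leaving out single libraries gave 0 to 4. For all loci the 723 calls became 41 with only the 6 libraries, which leaves fewer samples, 1102 with the block and 69 to 1248 with a library left out. The pathway lists' 1 call became 0 with a pseudocount of 0.1, without the filter and with only 6 libraries, 2 with quantile normalization, the block and without short loci, and 0 to 2 with a library left out. With cycloheximide 9 members were called, 9 to 10 with a library left out, and the 9 were called in 17 of 17 fits. The members were chosen with these same values in view, so repeated calls of them describe the fits and support nothing further. With a library left out the lists gave 27 to 32 calls and all loci 8680 to 10905. Against untreated libraries both compounds gave 9 to 10 members, 29 to 34 list calls and 10956 to 12676 loci. The other 2-finger genes gave 2 to 2 and, between treated groups, 0 to 0, but 1 with quantile normalization and cycloheximide, and taking that list from translated coding sequences, an alternative chosen after seeing the data, changed neither count. ZAT5 with both compounds against untreated turned to -0.028 with quantile normalization. Member log2 fold changes moved beyond the spread in 10 of 30 with a pseudocount of 0.1 and 9 of 30 with quantile normalization. In the comparison of cycloheximide with untreated libraries, those that moved with a pseudocount of 0.1 were ZAT7, ZAT8, ZAT11, AZF1 and AZF3. These are the members under 1 FPKM untreated, where the log2(FPKM + 1) scale understates differences. The cause of the shifts was not tested otherwise. Depth is unknown, which leaves levels under 1 FPKM least certain.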

Other observations

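The genes beside the members in the genome were in the table as well. Leaving out the unnamed locus over the 3′ part of ZAT7, 6 of 18 neighbouring tested loci were called higher with cycloheximide and 2 lower (limma, adjusted p under 0.05), where 26.5% and 28.2% of all tested loci were. Their median log2 fold change was 0.025 and their range -0.54 to 0.88. Among them were CSD2, beside ZAT5, which fell with cycloheximide, and HRS1, beside ZAT7, which rose by 0.32 on the log2 scale (limma, adjusted p = 0.0175).

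RBOHF, an NADPH oxidase gene of the reactive oxygen list, had 7.46, 5.89 and 1869.9 FPKM in untreated replicates 1, 2 and 3, and 15.1, 8249 and 12276 with cycloheximide. Both groups overlapped, and its difference did not pass the test (limma, adjusted p = 0.201). The drought and cold regulator CBF3, not tested for its low level, was listed at 1.55, 2.34 and 0.994 FPKM untreated and at 0.453 or less in every treated library.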
